A study of Mus musculus with 6 samples.

Results

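The toll-like receptors and their nearest signalling partners were followed in cells of the mouse line GC-2 spd(ts) exposed to bisphenol A (BPA). There were 10 genes, chosen by symbol from the mRNA table of 22127 genes: the receptors Tlr1, Tlr2, Tlr3, Tlr4, Tlr5 and Tlr6, the co-receptor Cd14, the adaptors Myd88 and Ticam1, and the kinase Irak4. All 10 were listed. The choice was made with the BPA over control ratios of these same libraries known, so the ratios below are descriptions and carry no test.

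The BPA culture received 120 µM BPA, a monomer of polycarbonate plastic, for 48 h, and the control culture received medium with 0.1% dimethyl sulfoxide, the solvent of BPA, for the same 48 h. Both were first kept without serum for 12 h and then had medium with 10% serum. GC-2 spd(ts) is a line derived from mouse spermatocytes, immortalised by large T antigen of a virus and carrying p53 that works at low temperature. The RNA of each culture was split into an mRNA, a small RNA (miRNA) and a circular RNA (circRNA) library, so each group holds 1 library of each kind and no difference has a replicate check. The mRNA libraries held 33071378 reads with BPA and 32312872 in control, recovered from the deposited values. Intervals are exact 95% counting intervals that compare the reads of 2 libraries. They leave out the variation between cultures, and since the labels describe no molecular identifiers that would mark PCR copies they cover counting error only. Of 14 markers of spermatocytes and germ cells only Sycp3, Meiob and Ddx4 were among the listed genes, with 9 reads in all in the BPA library and 9 in control, whereas 7 of 8 peritubular and fibroblast markers were listed and held 68397 reads with BPA and 136784 in control. The labelled cell type was therefore not visible in those of its defining markers that were listed. A marker that was not listed is not thereby shown to be unexpressed.

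Toll-like receptors recognise molecules of microbes and of damaged tissue. TLR4 binds bacterial lipopolysaccharide together with MD-2 (gene Ly96) after CD14 has delivered it, TLR2 pairs with TLR1 or TLR6 on lipopeptides, TLR5 binds flagellin, and TLR3 binds double-stranded RNA in endosomes. Most of these receptors signal through MYD88 and the kinase IRAK4 to NF-κB and inflammatory genes, TLR3 signals through TICAM1 (TRIF) to IRF3 and interferon genes, and TLR4 uses both routes. In testis, these receptors have been described in Sertoli cells, macrophages and germ cells.

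Tlr4 had far fewer reads in the BPA library, and it was the 1 member of 10 that differed at least 2-fold. The gene (ENSMUSG00000039005) lies on the plus strand of chromosome 4, 66827584 to 66930284 on GRCm38, in 4 annotated transcripts. It had 48 reads with BPA and 427 in control. The log2 ratio, computed for mRNA as BPA over control from normalised counts with 1 added, was -3.24 (95% interval -3.73 to -2.83), which is 9.43-fold lower. In bulk RNA, fewer cells that express a gene and less of its RNA per cell cannot be told apart. Its exons overlap no other annotated gene, and of the 5551 stretches of 50 bases in its transcripts 12 also occur in another gene. In the authors' deposited table, Tlr4 had a p-value of 0.334 and an adjusted p-value of 0.961, and the labels do not name the test, which set 1 library against 1. In that table the p-values of the other 9 members ran from 0.182 for Myd88 to 0.761 for Tlr6.

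Among all 16870 genes with at least 10 reads in both libraries together, 778 were at least 2-fold lower with BPA, 4.61% of them, and 1160 were at least 2-fold higher, 6.88%. The ratio of Tlr4 was used in choosing the members, so its place in this distribution is a description. Of 10386 genes whose higher library held at least 100 reads, predicted genes and clones left out, 142 were at least 2-fold lower and 7 had a lower ratio than Tlr4. Among the 5 genes of this set with the log2 ratio nearest to that of Tlr4, over 1 library of each group, were Krt7 with 15 reads with BPA and 168 in control (-3.51), Zfp62 with 226 with BPA and 1314 in control (-2.65), Bmp4 with 375 with BPA and 1982 in control (-2.51) and Ccdc71 with 269 with BPA and 1383 in control (-2.47). The likeness was the distance on the log2 scale, which was 0.27 for Krt7 and 0.77 for Ccdc71. Krt7 encodes a keratin and Bmp4 a growth factor.

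**Figure D1:**
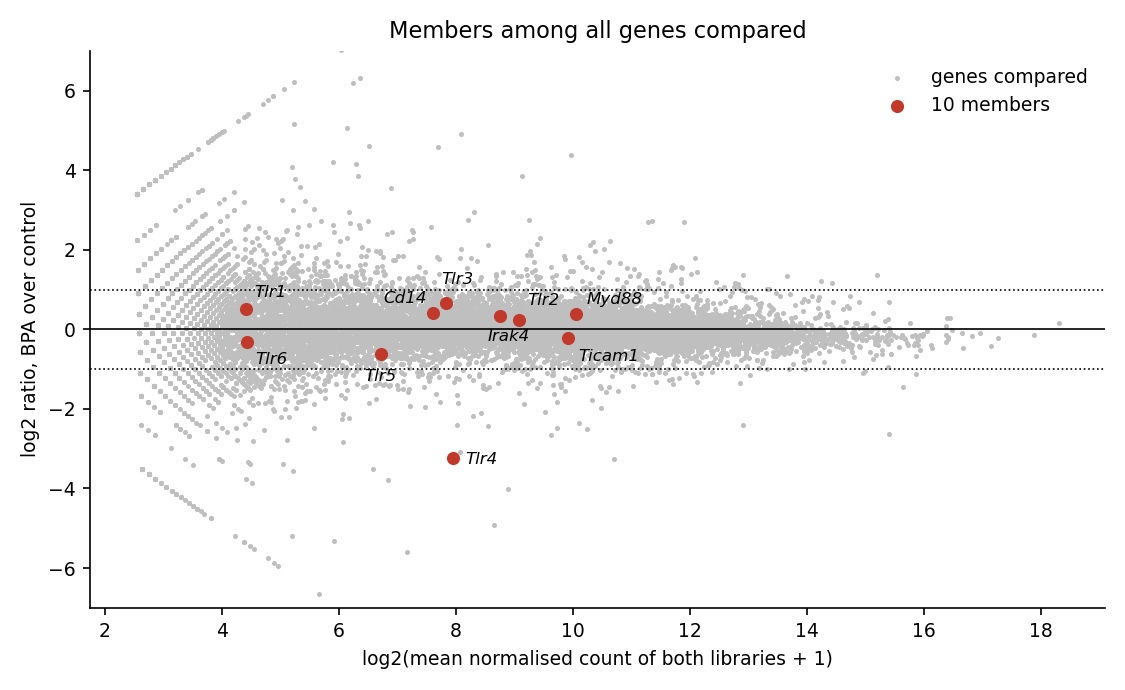
Log2 ratio of BPA over control (vertical axis) against log2 of the mean normalised count of both mRNA libraries plus 1 (horizontal axis) for the 16870 genes compared (grey) and the 10 members (red), with dotted lines at 2-fold. Tlr4 lies at -3.24 and the other 9 members lie inside the dotted lines, and 11 genes lie beyond the vertical axis.

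The genes around Tlr4 on chromosome 4 were mostly rarely read. The 3 listed genes before it were Trim32, a ubiquitin ligase 1211 kb away, with 2779 reads with BPA and 1971 in control (0.38, interval 0.30 to 0.47), Pappa with 7 reads with BPA and 3 in control, and 8030451A03Rik with 0 reads with BPA and 9 in control. After it came Gm11249, 1001 kb away, with 88 reads with BPA and 100 in control (-0.29, interval -0.73 to 0.13), Brinp1 with 0 reads with BPA and 3 in control, and Gm11221 with 15 reads with BPA and 14 in control. Only Trim32 and Gm11249 had 50 reads or more, and their intervals do not overlap that of Tlr4. 8030451A03Rik, like Tlr4, had its reads mostly in control, but too few for a comparison.

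The other receptors had smaller ratios in both directions. Tlr3 (chromosome 8, 45395665 to 45411080), the receptor of double-stranded RNA, had 288 reads with BPA and 169 in control, a log2 ratio of 0.65 (0.38 to 0.94). Tlr5 (chromosome 1, 182954788 to 182976044), the flagellin receptor, had 85 reads with BPA and 121 in control and -0.61 (-1.04 to -0.21). Tlr2 (chromosome 3, 83836272 to 83841767), the lipopeptide receptor, had 607 reads with BPA and 478 in control and 0.23 (0.06 to 0.41). For these 3 receptors the interval excluded equal levels, upward for Tlr3 and Tlr2 and downward for Tlr5, and none reached 2-fold. The exons of Tlr3 overlap the antisense gene Gm45542 over 381 bases.

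The partners of TLR2 gave too few reads for a direction. Tlr1 (chromosome 5, 64924679 to 64933563) had 25 reads with BPA and 16 in control, a log2 ratio of 0.51 (-0.43 to 1.54). Tlr6 (chromosome 5, 64952031 to 64960097) had 19 reads with BPA and 22 in control and -0.31 (-1.29 to 0.63). A difference in either gene was not detectable at this depth. Both lie side by side on the minus strand and share sequence: 454 stretches of 50 bases are common to their transcripts. Of all such stretches 15.4% of those in Tlr1 and 12.3% of those in Tlr6 also occur in another gene, so reads may have been divided between them.

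The makeup of the receptor reads differed between the libraries through Tlr4. The 6 receptors together had 1072 reads with BPA and 1233 in control, and Tlr4 made up 4.48% of them with BPA (exact 95% interval 3.32 to 5.89) and 34.6% in control (31.97 to 37.36). Without Tlr4, the other 5 receptors held 1024 reads with BPA and 806 in control.

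The co-receptor and the shared signalling genes stood within 2-fold. Cd14 (chromosome 18, 36725067 to 36726798) had 231 reads with BPA and 161 in control, a log2 ratio of 0.41 (0.11 to 0.71), opposite in sign to that of the receptor it serves. Myd88 (chromosome 9, 119335934 to 119341411), the adaptor of most of these receptors, had 1244 reads with BPA and 884 in control and 0.38 (0.26 to 0.51). Irak4 (chromosome 15, 94543643 to 94581815), the kinase that MYD88 recruits, had 499 reads with BPA and 369 in control and 0.32 (0.13 to 0.52). Myd88 and Irak4 thus both had more reads in the BPA library, with intervals above 0. Other genes of the MYD88 route, given below, lay on both sides of 0.

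Ticam1 (chromosome 17, 56269319 to 56276786), the adaptor of TLR3 and of the second TLR4 route, had 923 reads with BPA and 996 in control and a log2 ratio of -0.22 (-0.35 to -0.09). There were 1.35 Myd88 reads for each Ticam1 read with BPA and 0.888 in control. Exons of Myd88 overlap those of Acaa1a on the opposite strand over 290 bases, and exons of Irak4 overlap those of Twf1 over 395 bases. Acaa1a had 1674 reads with BPA and 1192 in control, and Twf1 had 5579 with BPA and 5503 in control. The labels do not say whether the counting used strand, so reads in these overlaps cannot be told apart.

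**Figure D2:**
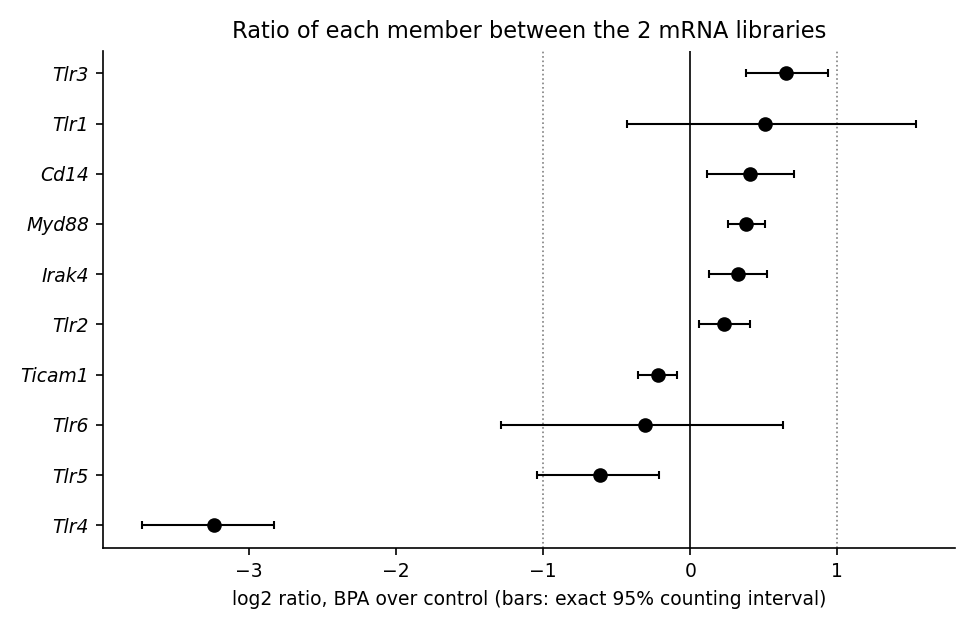
Log2 ratio of BPA over control (horizontal axis) for each of the 10 members, with exact 95% counting intervals and dotted lines at 2-fold. The interval lies above 0 for Tlr2, Tlr3, Cd14, Myd88 and Irak4. It lies below 0 for Tlr4, Tlr5 and Ticam1, and it spans 0 for Tlr1 and Tlr6. The share of all genes whose interval leaves out 0 was not computed, so these are descriptions of single genes.

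Levels can be compared between genes only per length, so reads were divided by the exon length in kilobases and by the library total to give RPKM. In the BPA library Myd88 was highest at 14.6 RPKM, followed by Ticam1 at 9.33, Tlr2 at 6.09, Cd14 at 4.03, Irak4 at 3.01, Tlr3 at 1.67, Tlr5 at 0.537, Tlr4 at 0.261, Tlr1 at 0.226 and Tlr6 at 0.154. Neighbours in this order were apart by their counting intervals except among Tlr4, Tlr1 and Tlr6. In control the order was Myd88 at 10.6 RPKM, Ticam1 at 10.3, Tlr2 at 4.91, Cd14 at 2.88, Tlr4 at 2.38, Irak4 at 2.27, Tlr3 at 1.00, Tlr5 at 0.782, Tlr6 at 0.183 and Tlr1 at 0.148. Here the intervals overlapped between Myd88 and Ticam1, between Tlr4 and each of Cd14 and Irak4, between Tlr3 and Tlr5, and between Tlr6 and Tlr1. Tlr4 stood at place 8 of 10 with BPA, beside Tlr1 and Tlr6, and at place 5 in control, where among the receptors only Tlr2 was higher.

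**Figure D3:**
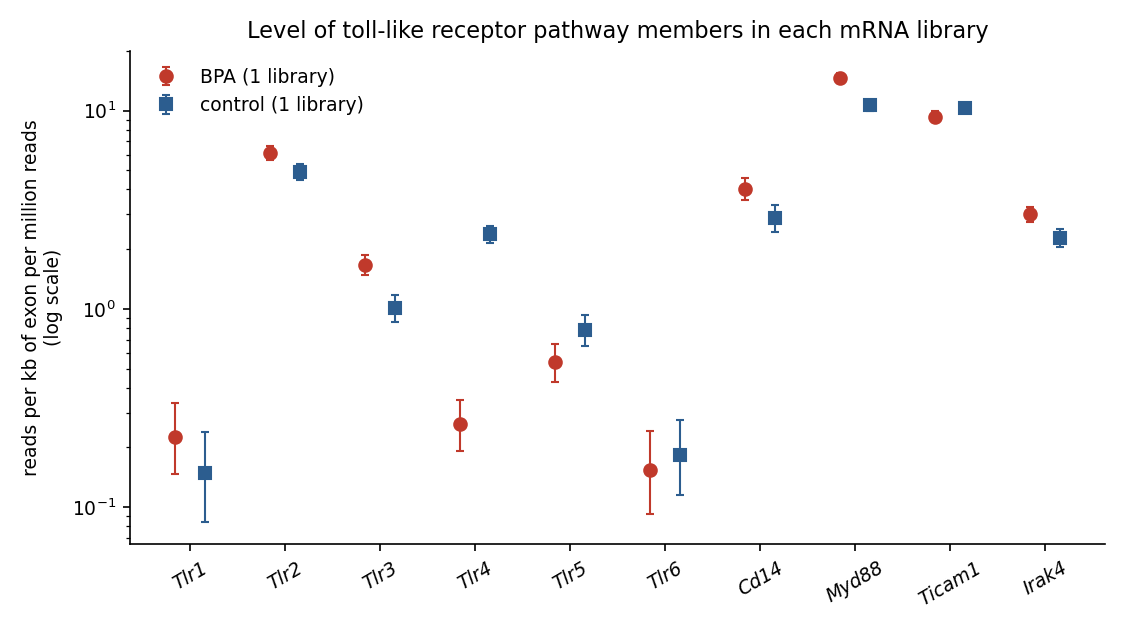
Level of each member in the BPA library (red circles) and the control library (blue squares), in RPKM on a log axis, with exact 95% Poisson intervals. Tlr4 is at 0.261 with BPA and 2.38 in control, while every other member lies within 2-fold between the libraries.

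Since macrophages carry much TLR4 and CD14, leukocyte markers were read beside these genes. Of 12 macrophage and leukocyte markers 8 were listed, with 297 reads in all with BPA and 166 in control (8.98 CPM with BPA and 5.14 CPM in control). The lysosomal protein Cd68, which other cells also make, accounted for 236 of these with BPA and 147 in control. The defining markers were at or near 0: Ptprc (CD45) had 0 reads with BPA and 3 in control, Csf1r 5 with BPA and 7 in control, and Itgam 6 with BPA and 0 in control, while Cd74 had 22 with BPA and 2 in control. Spi1 had 9 reads with BPA and 0 in control, Lyz2 11 with BPA and 5 in control, and Fcer1g 8 with BPA and 2 in control. Of the 6 endothelial markers 4 were listed, with 102 reads with BPA and 139 in control, mostly Kdr, and of the 7 Sertoli markers 4, with 622 reads with BPA and 430 in control, mostly Sox9. The fibroblast markers were lower with BPA, all 7 compared being below 0 and 3 at least 2-fold lower, among them Col1a1 at -1.12. Over all genes compared 51.9% were above 0 and 4.61% at least 2-fold lower. The part of any of these cell types, leukocytes included, in the ratio of Tlr4 was not tested.

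Further genes of the pathway were read from 10 lists of 161 genes, of which 136 were listed and 122 had at least 10 reads. At least 2-fold higher were 16 of the 122 (13.1%) and 8 were at least 2-fold lower (6.56%), with a median log2 ratio of -0.01, against 6.88% and 4.61% and a median of 0.02 over all genes compared.

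Of the receptors outside the 10, Tlr7 had 12 reads with BPA and 11 in control and Tlr13 had 3 with BPA and 0 in control, and the remaining 4 were not analysed here. None of 7 accessory proteins and chaperones differed 2-fold, and their median was 0.24. The endoplasmic reticulum chaperones Hsp90b1 (30005 reads with BPA and 27034 in control) and Cnpy3 (2625 with BPA and 2053 in control), which fold the receptors, were at 0.04 and 0.24. Ly96, the partner of TLR4 in lipopolysaccharide binding, had 105 reads with BPA and 69 in control, at 0.49 (0.04 to 0.95), and the lipopolysaccharide carrier Lbp had 11 with BPA and 7 in control. Of the lipopolysaccharide receptor complex, Cd14 and Ly96 therefore had more reads with BPA, and Tlr4 fewer.

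Of 30 adaptors, kinases and ubiquitin ligases 29 lay within 2-fold, with a median of 0.02. The exception was Irak2, a kinase of the MYD88 complex, with 678 reads with BPA and 310 in control and a ratio of 1.02 (0.82 to 1.22). Traf6, the ubiquitin ligase downstream of the IRAK kinases, had 1408 reads with BPA and 1063 in control (0.29), Irak1 1990 with BPA and 2069 in control (-0.17), and Tirap, the adaptor that brings MYD88 to TLR2 and TLR4, 461 with BPA and 517 in control (-0.28).

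Of 12 transcription factors 2 were at least 2-fold higher and none was 2-fold lower, with a median of 0.02. Irf7, which drives interferon genes, had 164 reads with BPA and 38 in control (1.97, interval 1.48 to 2.55), and Cebpb, which acts with NF-κB on inflammatory genes, had 1184 with BPA and 483 in control (1.18, interval 1.03 to 1.34). The 5 NF-κB subunits lay between -0.46 for Rel and 0.43 for Relb.

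Negative regulators differed in both directions, with 3 of 18 at least 2-fold higher and 3 lower, and a median of -0.21. Tnfaip3 (A20), a deubiquitinase that ends NF-κB signalling and is itself an NF-κB target, had 1037 reads with BPA and 2174 in control (-1.18, interval -1.29 to -1.07). Socs1, an inhibitor of cytokine signalling, had 68 reads with BPA and 135 in control (-1.09), and Il1rl1, the interleukin-33 receptor, which can hold back TLR signals, had 117 with BPA and 393 in control (-1.85). The inhibitor Nfkbia had 729 reads with BPA and 1337 in control, at -0.99 just inside 2-fold. Higher with BPA were Atf3, a stress-induced repressor of inflammatory genes, with 1789 reads with BPA and 471 in control (1.81), and Trim30a with 134 with BPA and 51 in control (1.27). Irak3, an inhibitory kinase of the IRAK family, had 19 reads with BPA and 7 in control (1.22, interval 0.02 to 2.82).

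The lists of NF-κB output genes and of IRF3 and interferon output genes had medians of -0.30 and 0.99. Whether toll-like receptors drive these genes in these cells was not tested. Of 15 NF-κB output genes, 9 were below 0, 3 were at least 2-fold higher and 1 was lower, with a median of -0.30. Over all genes compared 51.9% were above 0. The chemokine Ccl7 had 349 reads with BPA and 654 in control (-1.02, inside 2-fold by library total), its neighbour Ccl2 550 with BPA and 896 in control (-0.81) and the prostaglandin synthase Ptgs2 2409 with BPA and 4415 in control (-0.99). Tnfaip2, a gene induced by tumour necrosis factor, had 210 reads with BPA and 35 in control (2.44, interval 1.95 to 3.03). Il6 had 12 reads with BPA and 3 in control (1.61, interval -0.001 to 4.35). The chemokine Ccl20 had 16 with BPA and 0 in control, 4.94-fold higher with 3 counts per library in place of 0. The interval of Ccl20 begins lower, at a log2 ratio of 1.84.

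Of 11 IRF3 and interferon output genes 10 were above 0 and 5 at least 2-fold higher, none was 2-fold lower, and the median was 0.99. The share above 0 over all genes compared was 51.9%. Isg15, a ubiquitin-like modifier, had 989 reads with BPA and 359 in control (1.35, interval 1.17 to 1.53), and the antiviral genes Rsad2 and Ifit1 had 173 with BPA and 45 in control (1.81) and 447 with BPA and 192 in control (2.15-fold higher). Usp18, which removes ISG15, had 201 reads with BPA and 88 in control (1.07), and Mx2 had 28 with BPA and 11 in control (1.17). Ifit2 was the 1 gene below 0, with 1543 reads with BPA and 1572 in control (-0.14). That interferon genes were higher and that inflammatory genes lay on both sides was already known when these lists were written, so it is no independent support.

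Other innate sensors lay within 2-fold in 8 of 10 genes, with a median of -0.02. The exceptions were the peptidoglycan sensor Nod2 with 18 reads with BPA and 36 in control (-1.07, inside 2-fold by library total or with a pseudocount of 5) and the caspase Casp4, which binds intracellular lipopolysaccharide, with 27 with BPA and 9 in control (1.38). The list of endogenous ligands of the receptors, which also holds hyaluronan synthases, was below 0 in 11 of 12 genes, with a median of -0.27. Over all genes compared 51.9% were above 0. The hyaluronan synthase Has2 had 25 reads with BPA and 113 in control (-2.24, interval -2.98 to -1.65) and the proteoglycan Vcan, a TLR2 ligand, 389 with BPA and 788 in control (-1.13, interval -1.31 to -0.95), and 10 genes stood within 2-fold.

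**Figure D4:**
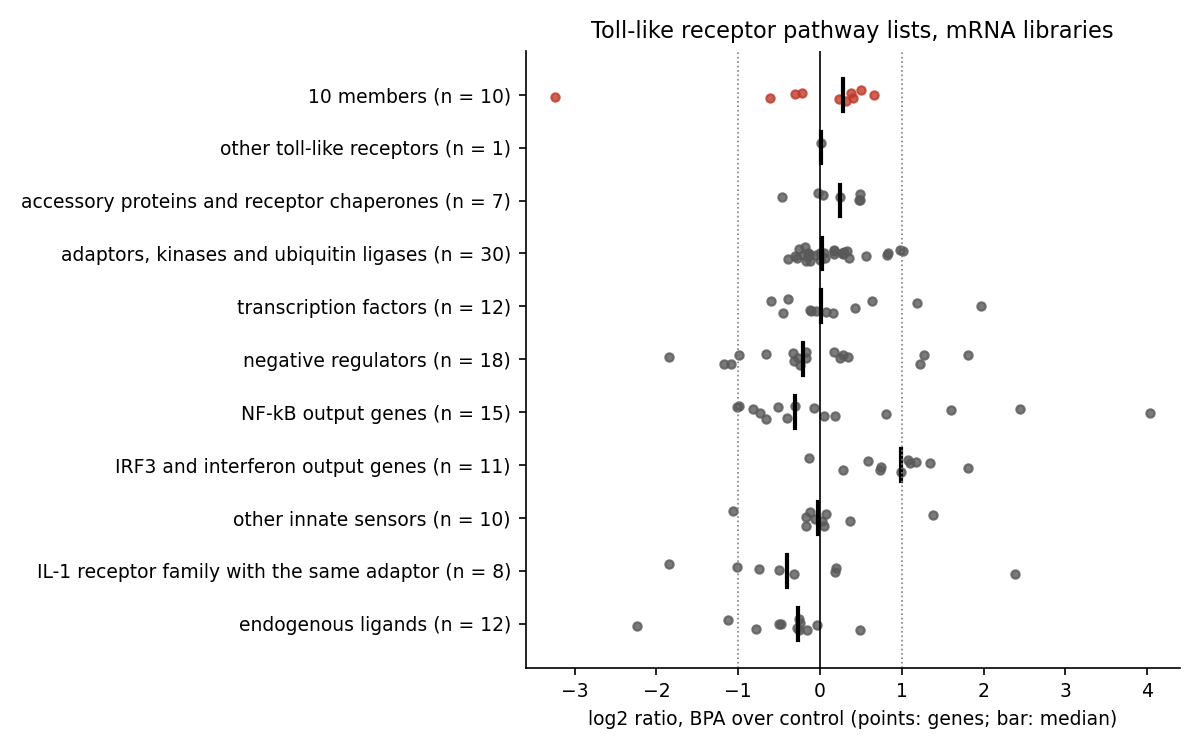
Log2 ratio of BPA over control (horizontal axis) for the 10 members (red) and for the genes of each pathway list with at least 10 reads (grey), with a black bar at each median and dotted lines at 2-fold. Tlr4 is the leftmost point of all at -3.24, and the interferon output genes have the highest median at 0.99.

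Sequences around the RefSeq starts of the members were read on GRCm38.p6, from 250 bases before to 50 bases after each start. The table holds 8 members, which leaves out Tlr4 and Cd14. Capitals mark letters of the interferon-stimulated element (GAAA, any 2 bases, GAAA) or of the NF-κB consensus, both searched on either strand. These 3 are shown because each belongs to a gene whose interval lay above 0 and holds a match.
Tlr2, chr3:83841559-83841858, minus strand: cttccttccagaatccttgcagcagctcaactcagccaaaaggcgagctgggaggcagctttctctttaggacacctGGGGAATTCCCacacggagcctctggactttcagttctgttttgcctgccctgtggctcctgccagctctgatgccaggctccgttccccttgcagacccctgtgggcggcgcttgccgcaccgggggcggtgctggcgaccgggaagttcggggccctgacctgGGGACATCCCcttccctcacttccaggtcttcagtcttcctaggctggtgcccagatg
Tlr3, chr8:45410331-45410630, minus strand: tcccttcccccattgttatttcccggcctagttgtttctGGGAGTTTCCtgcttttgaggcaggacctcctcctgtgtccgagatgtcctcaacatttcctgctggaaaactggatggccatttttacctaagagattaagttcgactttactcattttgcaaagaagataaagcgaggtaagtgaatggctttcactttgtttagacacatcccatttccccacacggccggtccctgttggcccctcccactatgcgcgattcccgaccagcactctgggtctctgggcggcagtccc
Myd88, chr9:119339969-119340268, minus strand: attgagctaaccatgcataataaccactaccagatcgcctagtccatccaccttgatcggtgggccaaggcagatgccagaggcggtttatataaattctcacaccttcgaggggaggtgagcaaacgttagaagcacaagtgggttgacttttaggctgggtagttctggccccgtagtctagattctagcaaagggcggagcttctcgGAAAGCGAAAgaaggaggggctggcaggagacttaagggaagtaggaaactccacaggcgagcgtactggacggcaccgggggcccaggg

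Positions count from the RefSeq start of each window and are negative before it. That start differs from the gene limits given above. The windows of Tlr3 and Myd88 lie wholly inside those limits, and that of Tlr2 lies partly inside them, so a negative position can fall within the gene. The Tlr2 window held the NF-κB consensus in overlapping matches that begin at -173 and -172 and again at -8, and the Tlr3 window held it at -211. The Myd88 window held the interferon-stimulated element at -40. One of the windows of Tlr6 held that element in a pair of overlapping matches and the other held neither motif, and the windows of Tlr1, Tlr5, Ticam1 and Irak4 held neither. Over all 32851 windows of the same length, 3.44% held the interferon-stimulated element and 8.46% the NF-κB consensus. By gene, 3.99% of the 27025 genes of the table held the interferon-stimulated element in a window and 9.55% the NF-κB consensus. Of the 10 IRF3 and interferon output genes with a window, 6 held the interferon-stimulated element and 5 the NF-κB consensus. Of the 21 NF-κB output genes with a window, 1 held the interferon-stimulated element and 9 the NF-κB consensus. A match is a description of the letters and does not show a bound site.

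The small RNA libraries held 3452574 reads with BPA and 3927981 in control. A list of 18 miRNAs described as acting on TLR signalling was read in them, and 17 were listed. The let-7 family, of which let-7i is known to repress TLR4 in human cholangiocytes, and miR-146b, miR-155, miR-21a, miR-9, miR-203 and miR-132 are shown by mature sequences from RefSeq (GRCm38.p6), with the seed, bases 2 to 8, in capitals, to be set beside the sites in the members.
mmu-let-7i-5p: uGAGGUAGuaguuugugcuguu
mmu-let-7f-5p: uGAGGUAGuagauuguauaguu
mmu-miR-146b-5p: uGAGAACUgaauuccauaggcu
mmu-miR-155-5p: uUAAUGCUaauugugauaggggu
mmu-miR-21a-5p: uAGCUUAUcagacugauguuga
mmu-miR-9-5p: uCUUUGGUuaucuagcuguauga
mmu-miR-203-3p: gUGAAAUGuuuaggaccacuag
mmu-miR-132-3p: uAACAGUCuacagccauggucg

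Letters that pair with a seed were searched in the 3′ untranslated region of the longest coding transcript of each member (GENCODE M21, GRCm38) for 7 seeds, which leaves out miR-145a-5p and miR-223-3p. Tlr4, with 1321 bases, held 1 site each for miR-203-3p and miR-9-5p, and none for the let-7 seed, which 9 miRNAs of the list share. Among 3′ untranslated regions at least as long, cut to the same length, 16.4% held the letters for miR-203-3p and 11.7% those for miR-9-5p. Tlr6 held 1 let-7 site, Myd88 1 let-7 and 1 miR-203-3p site, Irak4 1 miR-132-3p site, and the other 6 members held none of the 7. The letters stand in 7.16% of regions cut to the length of that of Tlr6 for let-7, in 6.39% for let-7 and 11.8% for miR-203-3p at the length of Myd88, and in 14.03% for miR-132-3p at the length of Irak4. The regions searched in Tlr1 and Tlr2 had 166 and 148 bases. The sites in Tlr4 and the let-7 sites are shown with flanking bases, the paired letters in capitals.
Tlr4, miR-203-3p, chr4:66842571-66842600, plus strand: cactgaatatataatgtCATTTCAcagtgt
Tlr4, miR-9-5p, chr4:66842736-66842765, plus strand: atttcttggtaaaggaaACCAAAGtagaat
Tlr6, let-7, chr5:64952239-64952268, minus strand: gttagcaagaaagaaggCTACCTCaactgt
Myd88, let-7, chr9:119336466-119336495, minus strand: ctgggctacatgagagcCTACCTCccccat

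The 2 miRNAs with a site in Tlr4 were rare. miR-9-5p had 573 reads with BPA and 116 in control, a log2 ratio of 0.80 (0.52 to 1.11) after TMM scaling (a trimmed mean over miRNAs), with 0.5 added to the reads. miR-203-3p had 32 reads with BPA and 7 in control and 0.62 (-0.51 to 2.12). The direction of the first was upward with BPA and that of the second was not detectable at this depth, and neither reached 2-fold after TMM.

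The let-7 family was abundant. Its 9 members had 833647 reads with BPA, 24.1% of that library, and 246365 in control, 6.27%. miR-148a-3p alone took 35.2% of the BPA reads and 70.5% of the control reads. The median log2 ratio of all miRNAs was 1.70 by library total and 0.02 after TMM. After TMM the let-7 members lay between -0.37 for let-7e-5p and 0.40 for let-7f-5p. let-7c-5p and let-7e-5p were below 0 after TMM and above 0 by library total. let-7i-5p, with 273694 reads with BPA and 80598 in control, was at 0.27 (0.26 to 0.28). With median-of-ratios size factors it was at 0.33, outside this interval, which does not cover the choice of scaling.

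Of the 17 listed miRNAs none was at least 2-fold higher or lower after TMM, where 12.3% and 15.7% of all 464 miRNAs with at least 10 reads were. Above 0 were 14 of the 17, with a median of 0.24 against 0.02 over all miRNAs. The share of all miRNAs above 0 was not computed, so the 14 are a description. miR-21a-5p had 99193 reads with BPA and 20741 in control (0.76) and miR-155-5p had 1736 with BPA and 424 in control (0.54). Scaled by the library total instead, all 17 were at least 2-fold higher, as were 362 of all 464 miRNAs (78.0%), and the median of all miRNAs shifted by 1.68. Of the miRNAs at 2-fold, 43.8% were higher after TMM and 96.5% by library total.

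**Figure D5:**
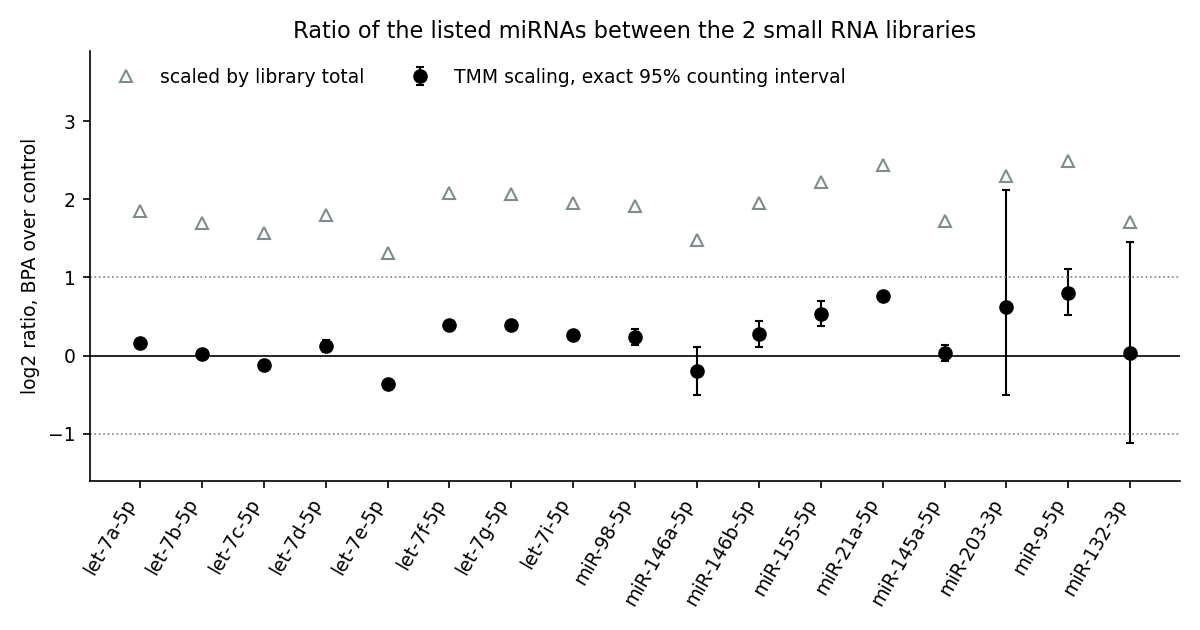
Log2 ratio of BPA over control (vertical axis) for the 17 listed miRNAs, after TMM scaling (filled circles, with exact 95% counting intervals) and scaled by library total (open triangles), with dotted lines at 2-fold. After TMM every point lies inside 2-fold, and by library total every point lies above it.

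The circRNA libraries held 17586 back-splice events with BPA and 12909 in control. Of the 10 members only Irak4 was a host, of 1 circRNA (chromosome 15, 94558769 to 94563080) with 0 events with BPA and 1 in control, and none came from Tlr4. A count of 0 allows up to 0.0171% of the events in the BPA library and 0.0232% in control. Of the pathway lists 23 further genes hosted 46 circRNAs with 66 events with BPA and 54 in control, and 1 of these reached 10 events, an exonic circRNA of Nfkb1 (chromosome 3, 135655500 to 135669339) with 21 events with BPA and 6 in control and a log2 ratio by library total of 1.28 (0.00 to 2.96). The linear counts of Nfkb1 were 3469 reads with BPA and 3463 in control (-0.11).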

How the data were processed

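One mRNA, 1 miRNA and 1 circRNA library of each group were used, grouped by their titles. The submitters' processing notes name STAR (mRNA, circRNA), StringTie (mRNA), Bowtie 1.1.0 (miRNA) and the builds GRCm38 and mm10. They give no read counter or annotation release. The deposited mRNA and circRNA values were log2 values of normalised counts or events plus 1. Dividing 2 to the power of the value, less 1, by 1 step per library (0.962 with BPA, 1.04 in control, and 2 for circRNA) gave whole numbers within 0.001 for 100% of the values. What a circRNA step of 2 stands for is not given, and it was taken as 1 event. The deposited miRNA values were read counts, and the deposited TPM columns were not used. Deposited p-values are quoted as the authors' only.

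The design assumed counts of mRNA and circRNA. Since the values were log2, the mRNA ratio kept the authors' scaling with a pseudocount of 1, and miRNA and circRNA ratios had 0.5 added. Genes needed 10 reads in both libraries together, and 2-fold was counted. With 1 library per group no test was made. Counting intervals (Clopper-Pearson, Poisson) came from SciPy 1.17.1, TMM factors from edgeR 4.0.16 and size factors from DESeq2 1.42.0 in R 4.3.3. Positions, exon lengths and 3′ untranslated regions were from GENCODE M21. Where a symbol had 2 entries, the lowest gene ID was kept.

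The members and lists were chosen with earlier results of these data known. Named were all members, of each list the genes 2-fold apart whose higher library held at least 20 reads or otherwise the 2 with most reads, the 5 genes nearest Tlr4 in ratio (1 of them is not reported here), its 3 neighbours on each side, and 2 markers per list. Named for their role or to complete a count, after their values were seen, were Ly96, Lbp, Irak1, Traf6, Tirap, Rel, Relb, Nfkbia, Ccl2, Ptgs2, Irak3, Il6, Ccl20, Ifit2, Il1r1, Il1rl2, Il1rap, Nfkb1, Acaa1a, Twf1 and further markers. Other pseudocounts, scalings and read minimums were tried.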

Additional observations from a re-analysis of the deposited data

How the results depend on the processing

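No paired analysis was possible because each group held 1 library, and for the same reason no replicate could be left out. The log2 ratio of Tlr4 ran from -3.25 (TMM) to -3.13 (pseudocount of 5), and the counts of members, 0 at least 2-fold higher and 1 lower, were the same under a pseudocount of 5, TMM, the library total, a minimum of 1 read and a minimum of 50 reads. The other members stayed inside their counting intervals under the settings that kept them. A minimum of 50 reads removed Tlr1 and Tlr6.

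Counts of a few genes moved, and of the list counts only those that moved are given here. Over all genes, 2978 were at least 2-fold higher and 2381 lower with a minimum of 1 read, and 440 and 277 with a minimum of 50. With a minimum of 1 read the counts of higher genes that moved were 1 of the other receptors and 3 innate sensors. They also included 2 of the interleukin-1 receptor family and 1 endogenous ligand. The counts of lower genes that moved were 3 NF-κB outputs and 2 innate sensors. With a minimum of 50 reads 1 NF-κB output, 0 innate sensors and 0 of the interleukin-1 receptor family were higher. By library total 2 adaptors and kinases were higher, and 0 NF-κB outputs, 0 innate sensors and 1 of the interleukin-1 receptor family were lower. With a pseudocount of 5, 0 innate sensors and 1 of the interleukin-1 receptor family were lower. By library total the median of all genes shifted by 0.08. Of the miRNAs all 17 were at least 2-fold higher by library total, where 362 of all 464 (78.0%) were, let-7c-5p stood at 1.56 and let-7e-5p at 1.32 there, against -0.12 and -0.37 after TMM, and none reached 2-fold with median-of-ratios size factors. With those size factors the ratios of 8 of the 17 miRNAs, let-7i-5p among them, left their counting intervals. Depth limits Tlr1, Tlr6, miR-203-3p and the circRNAs. The cause of these moves, beyond the genes each setting keeps, was not tested.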

Other observations

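Receptors of the interleukin-1 family, whose signal runs through the same adaptor MYD88 as that of the toll-like receptors, and their ligands were read in 8 genes with at least 10 reads. At least 2-fold lower were 2 of the 8 and 1 was higher, against 4.61% lower and 6.88% higher over all genes compared. Their median log2 ratio was -0.41. The interval lay below 0 for 3 of the 8 and above 0 for 1, and the share over all genes was not computed for intervals. Several genes of this list lie in a row on chromosome 1, of which Il1rl2 had fewer than 10 reads and is not among the 8. Il1r1, the interleukin-1 receptor (40225080 to 40317257), had 290 reads with BPA and 236 in control (0.18, interval -0.07 to 0.44), and Il1rl2 (40324610 to 40367562) had 3 with BPA and 0 in control. Further along, Il1rl1 (40429570 to 40465415) had 117 reads with BPA and 393 in control (-1.85, interval -2.17 to -1.56) and Il18rap, a subunit of the interleukin-18 receptor (40515362 to 40551705), had 48 with BPA and 91 in control (-1.02, interval -1.57 to -0.51, inside 2-fold by library total or with a pseudocount of 5). On chromosome 2 the receptor antagonist Il1rn (24336853 to 24351494) had 27 reads with BPA and 4 in control (2.39, interval 1.12 to 4.62). On chromosome 16 Il1rap had 842 reads with BPA and 1101 in control (-0.50, interval -0.63 to -0.37).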
